A study of Mus musculus with 4 samples.

Results

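The 10 genes described here, Mef2c, Smarcd3, Nkx2-5, Tbx20, Hand2, Myocd, Mnx1, Mafa, Pdx1 and Gfra1, are genes tied to the transcription factor Isl1 in the heart, the pancreatic islet or the motor neuron. They were chosen for those organs, and what was measured is Isl1 binding around them in another organ, the genital tubercle, from which the penis or the clitoris develops. They are 10 of the 21887 protein-coding genes of the gene table used. The series holds chromatin of genital tubercles from wildtype CD1 mouse embryos at E14.5 (embryonic day), as 2 Isl1 ChIP samples (chromatin immunoprecipitation with a rabbit monoclonal antibody against ISL1, then sequencing) and 2 input samples of sheared chromatin taken without antibody. Each ChIP sample has 1 list of peaks, the stretches where the authors called binding, with positions in the mouse build mm10. No peak list of the input samples was used here. How many embryos went into a sample, and whether the replicates are separate collections, is not given in the sources used here. Peak lists hold no expression values, so the labelled tissue was not checked against marker genes.

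Isl1 is a LIM-homeodomain protein, and homeodomains commonly contact DNA at a TAAT core. In the second heart field, the progenitor pool that lengthens the heart tube, Isl1 is a standard marker and acts with GATA and forkhead factors. In the pancreas it is needed for the maturation of hormone-producing islet cells, and in the ventral spinal cord it joins Lhx3 and Ldb1 in a complex that specifies motor neurons. The same factor can thus meet different genes in different organs. The peak lists show which of the 10 neighbourhoods held called peaks in the tubercle, and the series has no sample of the other organs.

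A neighbourhood is the gene itself with 500 kb on either side, and a peak belongs to it where its midpoint falls there. A shared region is a stretch where peaks of replicates 1 and 2 overlapped by at least 1 bp, with the midpoint of their longest overlap as its position. The authors gave each peak a whole-number score, which ranks peaks within a list. Scores are therefore also given as a percentile, the percent of peaks in the same list with that score or less.

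Isl1 binding was found around 7 of the 10 genes and in 21 shared regions, out of 6834 in the series. Gfra1 had 8 regions, Mef2c 5, Smarcd3 3, Hand2 2, and Myocd, Mafa and Pdx1 had 1 each. Nkx2-5, Tbx20 and Mnx1 had none. Only Gfra1, Smarcd3 and Mef2c had regions inside the gene, with 4, 3 and 1. At least 1 region inside the gene was found for 8.32% of all protein-coding genes. That share covers genes of any length, and Gfra1, Smarcd3 and Mef2c span 220, 31.8 and 163 kb. The 7 of 10 genes with a region were near the background, since 78.0% of all protein-coding genes had at least 1 shared region within 500 kb. The median was 1 region per gene over the 10 genes and 2 over all protein-coding genes (quartiles 1 and 4). Regions numbered 1.98 per Mb over the 10.6 Mb of the neighbourhoods and 2.53 per Mb over the 2704 Mb between the first and last annotated feature of the chromosomes.

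**Figure D1:**
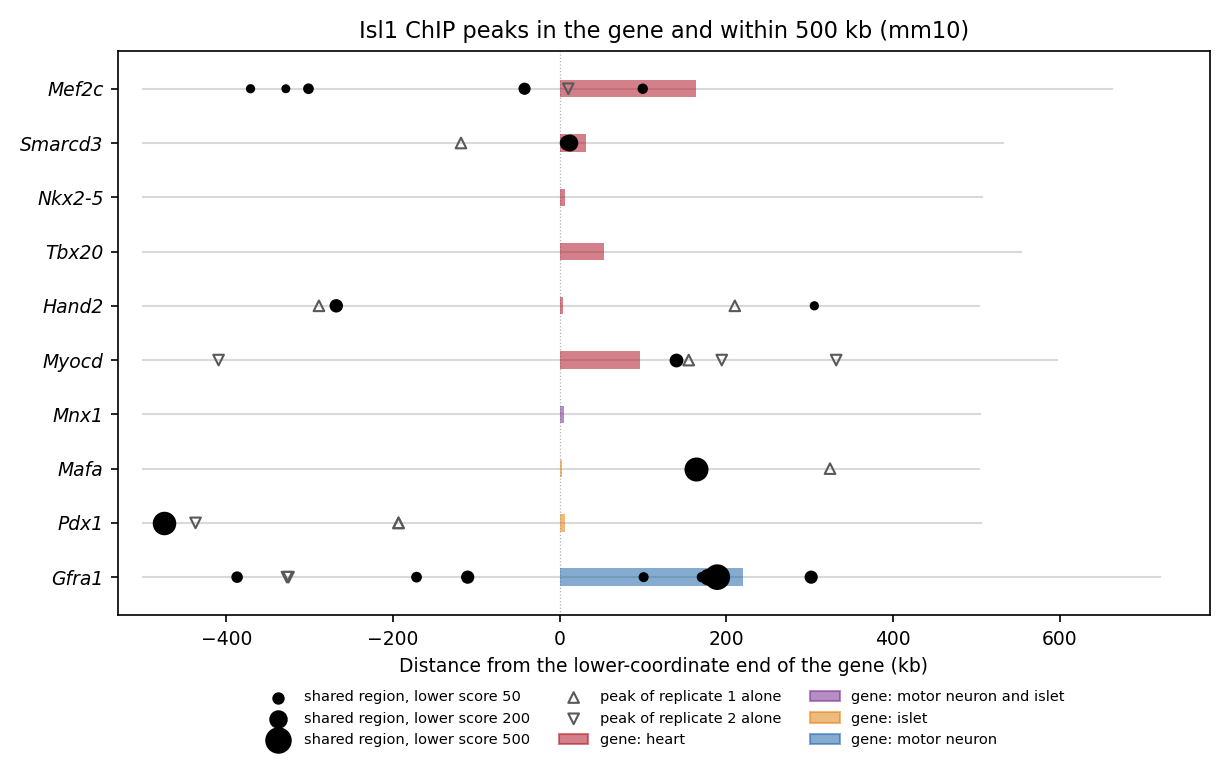
Positions of Isl1 peaks around the 10 genes, in kb from the lower-coordinate end of each gene along the chromosome. Bars are genes, black circles are regions shared by both replicates with area growing with the lower of the 2 scores, and open triangles are peaks of 1 replicate alone (some circles and triangles at Smarcd3, Pdx1 and Gfra1 lie on top of each other). The rows of Nkx2-5, Tbx20 and Mnx1 are empty, and the Smarcd3 regions and 4 of the 8 Gfra1 regions lie inside the gene.

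The sequences examined here are promoter windows, which run from 250 bases before to 50 after a listed gene start. Bases under shared regions outside these windows were not analysed here. RefSeq windows (GRCm38.p6, the assembly behind mm10) were at hand for 8 of the 10 genes. Smarcd3 alone among these 8 had a window touched by a shared region, and 4.29% of all protein-coding genes with a listed start did. Its window is shown with that of Usp12, the neighbour at whose start the single Pdx1 region lay, and with that of Hand2, which no region touched. Capitals mark the bases under the peaks of both replicates in Smarcd3 and Usp12, and TAAT or its reverse complement in Hand2. Usp12 and Hand2 were picked after their values were seen.
Smarcd3 (chr5:24601953-24602252, minus strand): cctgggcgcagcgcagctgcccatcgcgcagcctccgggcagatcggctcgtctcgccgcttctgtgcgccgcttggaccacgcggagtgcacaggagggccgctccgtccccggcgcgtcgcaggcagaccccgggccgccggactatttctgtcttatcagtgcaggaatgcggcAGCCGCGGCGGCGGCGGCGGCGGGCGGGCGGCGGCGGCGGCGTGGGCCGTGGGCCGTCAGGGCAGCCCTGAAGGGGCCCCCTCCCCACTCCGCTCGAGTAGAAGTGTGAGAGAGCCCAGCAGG
Usp12 (chr5:146794907-146795206, minus strand): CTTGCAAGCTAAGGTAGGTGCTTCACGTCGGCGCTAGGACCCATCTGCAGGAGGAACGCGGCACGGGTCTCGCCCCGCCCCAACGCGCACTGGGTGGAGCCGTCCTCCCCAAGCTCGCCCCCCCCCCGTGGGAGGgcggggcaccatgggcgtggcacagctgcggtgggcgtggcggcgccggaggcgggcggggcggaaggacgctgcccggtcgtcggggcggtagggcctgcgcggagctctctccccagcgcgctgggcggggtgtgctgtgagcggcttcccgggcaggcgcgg
Hand2 (chr8:57320733-57321032, plus strand): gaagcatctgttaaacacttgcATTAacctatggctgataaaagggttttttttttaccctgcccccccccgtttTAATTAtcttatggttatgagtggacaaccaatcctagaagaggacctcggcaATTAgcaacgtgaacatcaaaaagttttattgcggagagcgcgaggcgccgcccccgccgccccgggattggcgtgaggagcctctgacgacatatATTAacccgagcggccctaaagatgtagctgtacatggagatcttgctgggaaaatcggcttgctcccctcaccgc

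The 2 windows that peaks touched were rich in G and C and held no TAAT. G and C made up 74.7% of the Smarcd3 window, 75.7% of the Usp12 window and 50.3% of the Hand2 window, and the median over 21238 promoter windows of protein-coding genes was 56.3%. The letters TAAT, sought on both strands, stood at 0 positions in Smarcd3, 0 in Usp12 and 5 in Hand2, and 51.8% of all windows held them. Of longer words that contain TAAT, Hand2 held TAATTA once, a word in 4.54% of all windows, and it also held TAATTG once, which 6.83% of windows hold. The word CTAATG, in 6.44% of windows, was in none of the 3 windows printed, and CTAATTA, in 1.64%, was in none either. Smarcd3 and Usp12 held no such longer word. The GATA word GATAA stood once in Smarcd3 and at 2 positions in Hand2 (22.5% of windows hold it), and the E-box CANNTG stood once in Smarcd3 and at 2 positions in each of the others (69.0%). Among the windows that no region touched, TAAT stood at 1 position in Mnx1, Tbx20 and Nkx2-5, at 0 in Pdx1 and Gfra1, and at 5, 6 and 1 in the 3 windows of Mef2c. These matches describe letters in a window and do not show or deny a binding site. The regions at Smarcd3 and Usp12 both reach beyond the windows, and their bases outside the windows were not searched.

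Smarcd3 encodes BAF60C, a subunit of the BAF chromatin remodelling complex that in the heart works with cardiac transcription factors. Its 3 shared regions all lay inside the annotated gene (chromosome 5, 24592622 to 24624456, minus strand) and within 3357 bp of one another. The only listed start, at 24602002, lies within that span, so a region upstream of it can still count as inside the gene. The region at 24601878 to 24602087 had scores of 176 in replicate 1 and 196 in replicate 2 (percentiles 78.3 and 80.1) and its midpoint was 7 bp from the listed start, under the capitals of the window printed above. The strongest of the 3, at 24604614 to 24604780, scored 217 and 271 (percentiles 83.4 and 87.8) and lay 2708 bp upstream of that start. A gap of 212 bp separated it from the region at 24604993 to 24605234, which scored 79 and 158. Each of the 3 scored above the median of its list in replicate 2, and the first pair did so in replicate 1 as well. Although 22 other protein-coding genes reach into the neighbourhood, the only further peak in it was one of replicate 1 alone with a score of 58, 119 kb away.

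**Figure D2:**
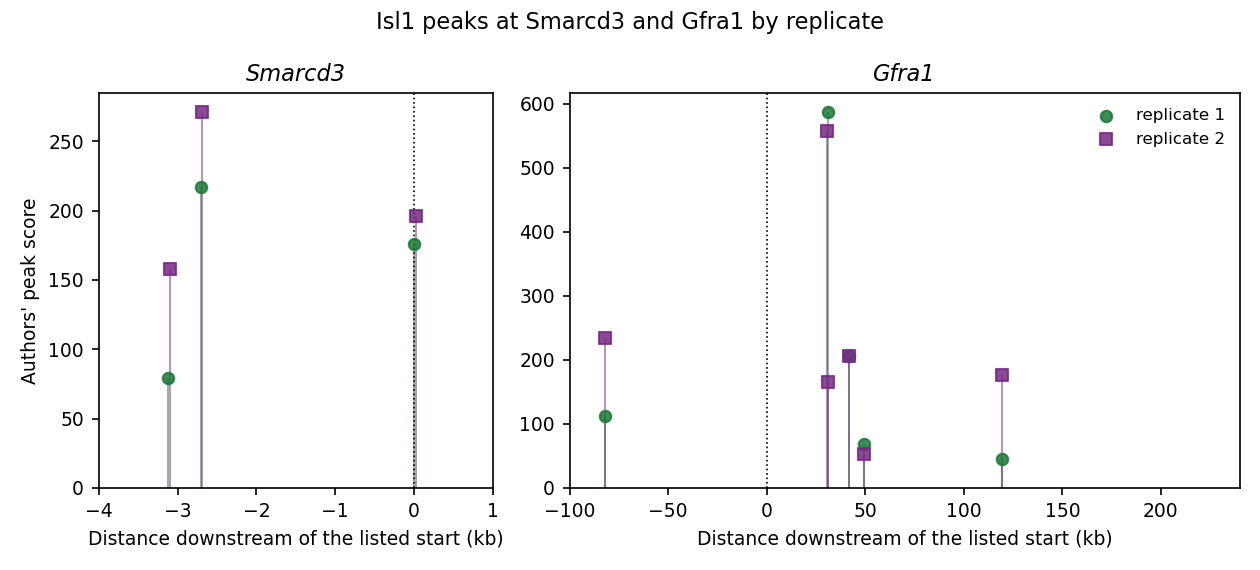
Authors' peak score (vertical axis) against distance downstream of the listed gene start in kb (horizontal axis, dotted line at the start) for peaks at Smarcd3 (left) and Gfra1 (right), each point a peak of replicate 1 (circle) or replicate 2 (square). At Smarcd3 a peak of each replicate stands at the start, and at Gfra1 the highest peaks, 587 and 558, stand about 30.8 kb inside the gene.

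Gfra1 encodes a co-receptor through which glial cell line-derived neurotrophic factor signals with the receptor Ret, in motor neurons among other cells. It had most regions of the 10 genes, 8, and 5.24% of all protein-coding genes had at least as many. With 220 kb it is also the longest of the 10, so its neighbourhood is the widest. The strongest region of the gene, at chromosome 19, 58424158 to 58424794, scored 587 in replicate 1 and 558 in replicate 2 (percentiles 96.4 and 96.8) and lay 30.8 kb downstream of the start. Replicate 2 divided it into a peak of 166 (58424158 to 58424379) and a peak of 558 (58424435 to 58424779), where replicate 1 had 1 peak. By the lower of the 2 scores this region stood at the 96.3 percentile of all shared regions, the highest among the 21.

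The other 3 regions inside Gfra1 were weaker in both replicates. At 58413430 to 58413755 the score was 206 in each replicate, 41.8 kb downstream of the start. Values of 69 and 53 were found at 58406125 to 58406282, and of 45 and 176 at 58336065 to 58336378. The last of these ranked at percentile 13.9 in replicate 1 and at 77.3 in replicate 2, so its rank differed strongly between the lists. Together 3 of the 4 lay within 18.4 kb. Over all protein-coding genes, 0.576% had 4 or more shared regions inside them. That share covers genes of any length, and Gfra1 spans 220 kb. Outside Gfra1, 3 regions lay inside its neighbour Atrnl1, which held more shared regions than any other gene of the 10 neighbourhoods that is not one of the 10. Their scores were 84 and 75, 59 and 99, and 127 and 114 in replicates 1 and 2. One more lay inside Ccdc172, with scores of 113 and 234, 81.9 kb upstream of the Gfra1 start. Replicate 2 alone placed 2 further peaks in the neighbourhood, with scores of 32 and 109.

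Mef2c encodes a MADS-box transcription factor of muscle, heart, nerve and bone cells, and in mice its anterior heart field enhancer is a known target of Isl1 and GATA factors. Its 5 regions had no other protein-coding gene in the neighbourhood, and 19.4% of all protein-coding genes had 5 or more. Of the regions, 4 lay upstream of every listed start and 1 inside the gene. The highest scores in the neighbourhood, 89 in replicate 1 and 164 in replicate 2 (percentiles 49.1 and 73.9), belonged to the region at chromosome 13, 83461470 to 83462124, which was 42.2 kb from the gene and at 655 bp the widest of the 21. The region inside Mef2c, at 83603457 to 83603736, scored 52 and 106 and lay 30.0 kb downstream of the nearest of 3 listed starts. Farther upstream, regions 302, 329 and 371 kb from the nearest start scored 63 and 58, 26 and 61, and 31 and 138 in replicates 1 and 2.

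The lower of the 2 scores placed the 5 Mef2c regions at percentiles 2.50 to 48.1 of all shared regions. That lower score was the one of replicate 1 in 4 of the 5. In replicate 2, 3 of the 5 scored above the median of the list (138, 164 and 106, percentiles 68.3, 73.9 and 55.2), and in replicate 1 none did. None of the 5 was left when only peaks at or above the median score of their list were kept. Replicate 1 had no peak of its own there, and replicate 2 had 1, inside the gene, with a score of 44.

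Hand2 encodes a basic helix-loop-helix factor of the heart and of the limb and other mesenchyme. Neither of its 2 regions was near the gene (chromosome 8, 57320983 to 57324517). The one at 57052649 to 57052979 scored 119 and 244 in replicates 1 and 2 (percentiles 64.4 and 85.6), 268 kb upstream, and Hand2 was its nearest protein-coding gene. On the other side a region 302 kb away, at 57626461 to 57626739, lay inside Galnt7 and scored 31 and 109. Of the 2, 1 remained as shared when the overlap had to reach 50% of each peak, and replicate 1 by itself had 4 peaks, of which those it did not share scored 53 and 93.

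Myocd encodes myocardin, a coactivator of serum response factor in heart and smooth muscle. One shared region, at chromosome 11, 65313214 to 65313652, was nearest to it, 43.5 kb from the higher-coordinate end. Its scores were 128 in replicate 1 and 154 in replicate 2 (percentiles 67.3 and 71.6). The replicates matched less well in the rest of the neighbourhood, where replicate 1 had 1 peak of its own, scoring 42, and replicate 2 had 3, scoring 51, 109 and 109. With the shared region counted, replicate 1 had 2 peaks in this neighbourhood and replicate 2 had 4.

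The homeobox gene Nkx2-5 and the T-box gene Tbx20 encode core transcription factors of the early heart. Neither had a peak of either replicate within 500 kb, although 17 and 6 other protein-coding genes reach into these neighbourhoods. The nearest shared region was 715 kb from Nkx2-5 (chromosome 17, 26123325 to 26123455, scores 165 and 217) and 829 kb from Tbx20 (chromosome 9, 23891812 to 23892067, scores 90 and 106). Mnx1, a homeobox gene of motor neurons and of the early pancreas, had no peak either, and its nearest region, 677 kb away, scored 735 and 565. Across the genome 13.3% of protein-coding genes had no peak of either list within 500 kb, against 3 of these 10. A site under the authors' threshold is not listed, so an empty neighbourhood is not shown to be unbound.

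**Figure D3:**
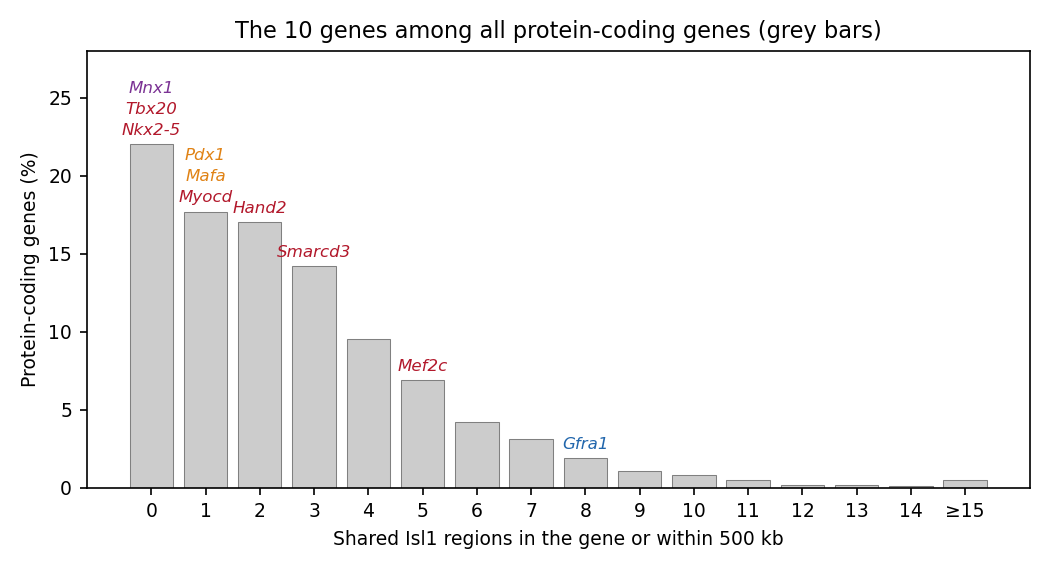
Percent of the 21887 protein-coding genes (vertical axis, grey bars) by number of shared Isl1 regions in the gene or within 500 kb (horizontal axis), with the 10 genes written above the bar of their own count. Nkx2-5, Tbx20 and Mnx1 stand at 0, Myocd, Mafa and Pdx1 at 1, and Gfra1 at 8.

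Mafa, a basic leucine zipper activator of the insulin gene, and Pdx1, a homeobox gene needed for pancreas formation and beta cell function, each had 1 strong region that belonged by position to another gene. In the Mafa neighbourhood, where 32 other protein-coding genes reach in, the region at chromosome 15, 75909281 to 75909608, scored 1060 in replicate 1 and 484 in replicate 2 (percentiles 99.3 and 95.8). It lay inside Eef1d, which encodes a subunit of translation elongation factor 1, 161 kb from Mafa. The Pdx1 region, at chromosome 5, 146795060 to 146795404, scored 861 and 462 (percentiles 98.5 and 95.5). It was 475 kb from Pdx1 and 229 bp from the start of Usp12, a ubiquitin-specific protease gene, under the capitals of the Usp12 window printed above. These 2 regions held the highest replicate 1 scores of the 21. Single lists added weaker peaks, which also lay at other genes. Replicate 1 alone had 1 of 102 in the Mafa neighbourhood, 322 kb from Mafa and 42 bp from another gene. It also had 2 of 69 and 138 in the Pdx1 neighbourhood, 193 to 194 kb from Pdx1 and inside other genes. Replicate 2 alone had 1 of 82, inside another gene and 437 kb from Pdx1.

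In the whole series, regions at gene starts had the higher median score. On chromosomes with listed starts, the lower score had a median of 220 over the 791 shared regions within 1 kb of a listed start and of 85 over the 5716 farther away. Of the 21 regions, at least 2 lay within 1 kb of a gene start, those at Smarcd3 and Usp12. No listed start was at hand for Eef1d, Mafa or Myocd, so the distance of the strong Eef1d region from the start of that gene was not measured. Among the 6507 shared regions on chromosomes with listed starts, 12.2% lay within 1 kb of one. Starts were listed for 17492 of the 21887 protein-coding genes, so a region at an unlisted start counts as farther away.

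**Figure D4:**
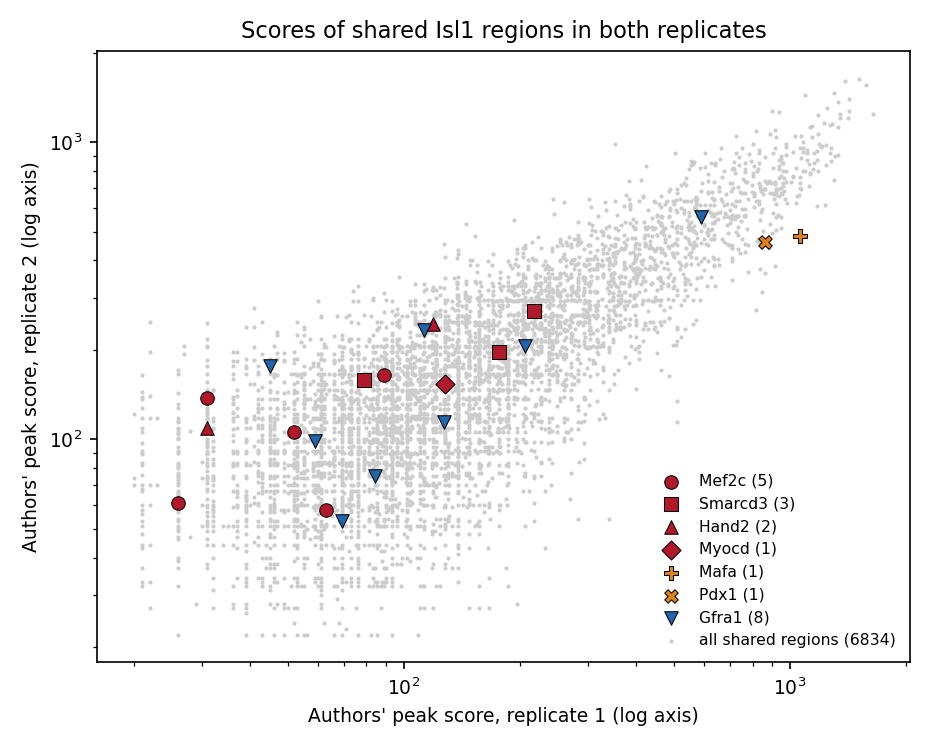
Authors' peak scores of shared regions in replicate 1 (horizontal log axis) and replicate 2 (vertical log axis), coloured symbols for the 21 regions around the 10 genes with the number per gene in brackets and grey points for all 6834. The Gfra1 region at 587 and 558 and the Mafa and Pdx1 regions lie at the upper right, and the other symbols lie in the body of the grey points.

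The nearest gene of a region divides the 21 further. For 14 of them the nearest protein-coding gene was the one of the 10 under which they are listed, namely 5 at Mef2c, 4 at Gfra1, 3 at Smarcd3 and 1 each at Hand2 and Myocd. The other 7 were nearest to Atrnl1 (3 regions), Ccdc172, Galnt7, Eef1d and Usp12. In all, 8 regions lay inside 1 of the 10 genes, 6 inside another protein-coding gene and 7 inside none. The 14 regions inside any protein-coding gene made up 66.7% of the 21, and 42.8% of all shared regions lay inside one. Regions more than 100 kb from any protein-coding gene were 4 of 21 (19.0%), 3 upstream of Mef2c and 1 upstream of Hand2, and 25.8% of all shared regions were as far. The 21 regions were gathered around protein-coding genes and the series shares cover all positions, so neither comparison is like for like.

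Replicates placed most of these peaks together. In replicate 1, 21 of 28 peaks in the neighbourhoods were shared (75.0%, Wilson 95% interval 56.6 to 87.3%), and 78.5% of its whole list were. In replicate 2, 22 of 29 were shared (75.9%, 57.9 to 87.8%), and 68.3% of its whole list were. Both intervals cover counting error alone and treat peaks as independent draws. Peaks of 1 library are not independent, and Gfra1 gave 8 of the 28 and 11 of the 29. The intervals are therefore no test against the whole list. Unshared peaks around the 10 genes scored 42 to 138 in replicate 1 (median 69, 7 peaks) and 32 to 109 in replicate 2 (median 82, 7 peaks). Shared peaks had medians of 89 and 161 in replicates 1 and 2. The rank correlation (Spearman) between replicates 1 and 2 was 0.759 over the 21 regions and 0.717 over all 6834, given as a description, since all regions come from the same 2 libraries. The lower score had a median of 89 over the 21 regions and 91 over all shared regions, and 10 of the 21 lay above that value.

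Other genes of the same organs were taken from 3 lists of 28 genes each, none of them among the 10. The lists were chosen with earlier results of these data known, so their counts beside the background are a description and not a test. Neighbours such as Tbx3 and Tbx5 can also count the same region. Of cardiac genes, 27 of 28 had a shared region within 500 kb, of islet genes 21 and of motor neuron genes 28, where 78.0% is the background. Their medians were 2, 1 and 4 regions per gene. In the cardiac list the T-box genes Tbx2 and Tbx3 had 15 and 12 regions, Bmp4, a bone morphogenetic protein, had 12 and the homeobox gene Shox2 had 11, and Gata6 had none. Tbx2, Tbx3, Bmp4 and Shox2 are also genes of limb mesenchyme. Among motor neuron genes the guidance receptor genes Robo2 and Robo1 had 23 and 19, with 18 and 14 inside these long genes, and Epha4 and Slit3 had 12 and 10. Islet genes with many regions included Neurod1 (9), Sst (5) and Neurog3 (5), none with a region inside the gene. Without a shared region were 7 islet genes: Glp1r, Iapp, Nkx2-2, Nkx6-1, Pax4, Pax6 and Pcsk2. Of these 7, only Glp1r had no peak in either list, and Gata6 had 1 peak in each list. Among the named genes with a shared region, single lists gave over 1.5 times the shared count at Bmp4 (21 peaks in replicate 2), Shox2 (19 in replicate 2), Epha4 (20 in replicate 2), Slit3 (16 in replicate 1) and Sst (10 in replicate 2).

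**Figure D5:**
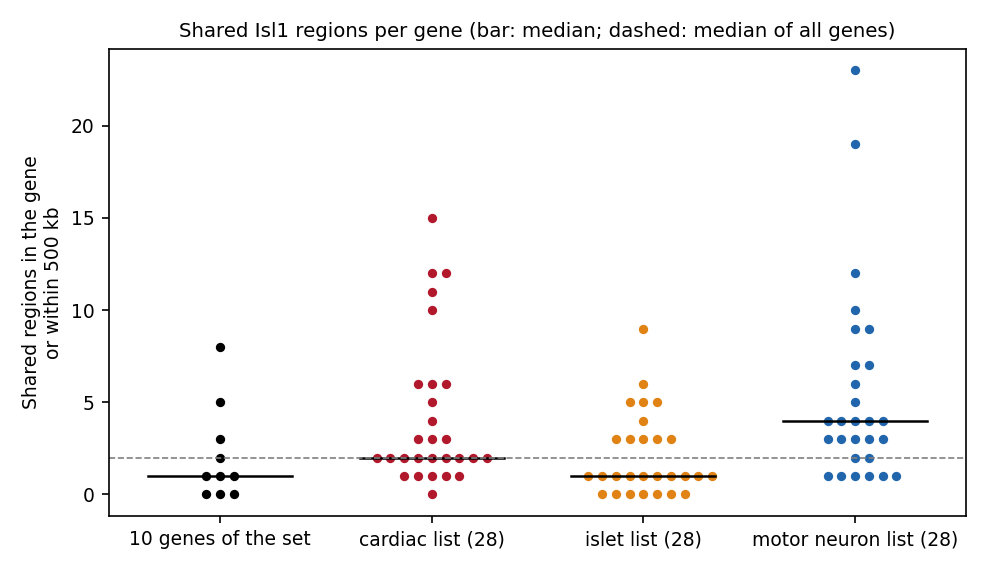
Number of shared Isl1 regions in the gene or within 500 kb (vertical axis) for each of the 10 genes and each gene of the cardiac, islet and motor neuron lists, 1 point per gene. Solid bars are medians, at 1, 2, 1 and 4, and the dashed line is the median of all protein-coding genes, 2.

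The limit of 500 kb decides some of these counts. Just inside it lay the Pdx1 region at 475 kb (scores 861 and 462). Just outside were a region 501 kb from Myocd with scores of 277 and 235 and one 503 kb from Pdx1 with scores of 69 and 135.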

How the data were processed

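Chromatin was fixed in 1% formaldehyde for 20 minutes and sheared to 150 to 400 bp, and single-end reads of 75 bp were taken, per the labels' protocols. The submitters' processing notes name Trimmomatic 0.35, Bowtie2 2.2.6, MACS2 2.1.0.20150731, bedtools and build mm10, without order or settings. The score in each list is the value the authors deposited per peak; the sources used here state neither its formula nor the calling threshold nor the use of input. Scores started at 20 in each list. The lists held 8860 peaks in replicate 1 and 10162 in replicate 2; read depth is unknown, and no value was compared between scores of different lists except by rank or as stated.

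Overlaps, windows and counts were computed with Python 3.11.15, pandas 2.3.3 and scipy 1.17.1 and checked on simulated peak lists. Genes were placed by a RefSeq table of GRCm38.p6 without exons or strand, so regions inside genes could not be divided into exons and introns. Gene starts and strands came from the promoter windows, which were held for 8 of the 10 genes. No chance test was run, because peaks of 1 library are not replicates. The 10 genes and the lists were chosen with earlier results of these data known. Named beside them were, in each neighbourhood, the other gene holding most regions and the gene nearest its strongest region, and the first 4 genes of each list by regions, then score; 1 islet gene that this rule names is not reported here, and list genes with none were named after their values were seen. Alternatives changed the overlap, score threshold, window and replicate used.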

Additional observations from a re-analysis of the deposited data

How the results depend on the processing

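Of 106 values recomputed under 7 alternatives, 76 stayed within the limits set and 30 moved, 23 of them counts at single genes, and no correlation changed sign. The 21 regions became 10 with peaks at or above the median score of their list, 11 within 100 kb and 45 within 1 Mb, and the number of genes with a region, 7, became 4 within 100 kb (10 within 1 Mb). The shared percent of replicate 1 peaks was 91.7% within 100 kb, that of replicate 2 was 52.4% with the score threshold, and the median lower score was then 191. With 1 replicate alone there were 28 to 29 peaks at 7 genes, with median scores of 86.5 to 114. Nkx2-5, Tbx20 and Mnx1 had no peak in any setting but the 1 Mb window, where they had 2, 2 and 1 regions. No paired analysis was possible because no result compares groups: peak lists of the inputs were not used here. Read depth is unknown and limits which weak sites each list could hold.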
